A study of Mus musculus with 4 samples.

Results

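Accessible regions that lie at the ends of neighbouring genes were examined in double-positive (DP) thymocytes, the CD4+CD8+ stage of T cell development in the thymus. A region belonged to the set when it came within 1000 bp of an annotated start or end of at least 2 different protein-coding genes. Of the 15215 regions called in wild type, 1252 met this rule. Of these, 1224 lay at 2 genes and 28 at 3 genes, and together they named 1163 distinct gene sets and 2299 genes. The wild-type (WT) cells came from C57BL/6 mice with the genotype CHAF1bfloxp/floxp, in which Chaf1b is flanked by loxP sites and no Cre is present. The knockout (KO) cells came from mice with the same floxed alleles and Cd4-cre, a Cre transgene under the Cd4 promoter that becomes active in thymocytes around the DP stage. Both groups therefore carry the floxed alleles and differ by Cre, and the extent of Chaf1b deletion was not checked here. The assay was ATAC-seq, which uses a transposase to cut and tag open DNA, on 50000 sorted cells per sample. There were 2 samples per group, and the labels say that each deposited region list was made from both.

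Neighbouring genes are often transcribed in opposite directions from a shared, nucleosome-poor stretch of DNA, called a divergent or bidirectional promoter. Such promoters are typically rich in CpG, lack a TATA box, and serve many genes of DNA repair, mitochondria and basic metabolism. Chaf1b encodes a subunit of CAF-1, the chaperone that places histones on newly replicated DNA.

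The promoters of 9 gene pairs illustrate the range of these regions, and each is given as the 300 bases from 250 before to 50 after the start of 1 gene of the pair (RefSeq, GRCm38.p6), read 5′ to 3′ in the direction of that gene. Capitals mark every match, on either strand, to the motifs searched: the GC box GGGCGG, bound by Sp factors, the NF-Y site CCAAT, the core CCGGAA of ETS factor sites, the NRF1 site CGCATGCG, the YY1 site AAGATGGCG, the cAMP response element TGACGTCA, the E-box CACGTG, the TATA box with the letters TATAAA, and the ZFP143 site CTACAATTC. A match on the other strand reads as the reverse complement, such as ATTGG for CCAAT, and neighbouring matches may join or overlap. The first 6 windows lie at regions called in both lists. The Xrcc3 window (chr12:111813830-111814129, minus strand) is shown for its 6 CCAAT motifs, and the Mdh1 window (chr11:21571885-21572184, minus strand) because its region was among the strongest. The Oip5 window (chr2:119618456-119618755, minus strand) belongs to a pair with one of the lowest KO shares of reads. The windows of Atm (chr9:53536622-53536921, minus strand) and Hspd1 (chr1:55087883-55088182, minus strand) stand for textbook divergent pairs, the latter without CCAAT, and that of H2ac12 (chr13:22035594-22035893, minus strand) for the histone genes.
Xrcc3: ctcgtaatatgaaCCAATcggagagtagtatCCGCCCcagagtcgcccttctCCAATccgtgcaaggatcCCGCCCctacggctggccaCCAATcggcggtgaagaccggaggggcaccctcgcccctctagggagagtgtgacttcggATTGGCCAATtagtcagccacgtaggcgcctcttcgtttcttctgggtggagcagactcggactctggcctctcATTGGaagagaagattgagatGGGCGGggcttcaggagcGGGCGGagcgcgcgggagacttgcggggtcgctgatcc
Mdh1: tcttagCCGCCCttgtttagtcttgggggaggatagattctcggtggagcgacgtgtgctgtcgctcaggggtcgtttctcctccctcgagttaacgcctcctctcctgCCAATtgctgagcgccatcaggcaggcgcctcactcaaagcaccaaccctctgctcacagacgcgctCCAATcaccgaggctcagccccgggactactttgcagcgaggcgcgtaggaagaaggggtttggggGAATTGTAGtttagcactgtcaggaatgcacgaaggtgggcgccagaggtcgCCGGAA
Oip5: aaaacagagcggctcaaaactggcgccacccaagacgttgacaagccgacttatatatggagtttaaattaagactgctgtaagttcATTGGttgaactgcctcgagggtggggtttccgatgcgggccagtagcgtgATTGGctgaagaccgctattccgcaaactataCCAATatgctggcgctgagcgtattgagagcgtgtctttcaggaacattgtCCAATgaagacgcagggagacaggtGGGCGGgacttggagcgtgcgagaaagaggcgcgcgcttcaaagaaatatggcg
Atm: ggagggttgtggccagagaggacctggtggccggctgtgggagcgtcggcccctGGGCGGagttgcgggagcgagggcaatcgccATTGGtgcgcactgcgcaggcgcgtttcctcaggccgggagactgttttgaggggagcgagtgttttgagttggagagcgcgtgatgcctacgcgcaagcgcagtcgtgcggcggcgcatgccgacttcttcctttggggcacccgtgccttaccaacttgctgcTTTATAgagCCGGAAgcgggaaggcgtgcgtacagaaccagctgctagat
Hspd1: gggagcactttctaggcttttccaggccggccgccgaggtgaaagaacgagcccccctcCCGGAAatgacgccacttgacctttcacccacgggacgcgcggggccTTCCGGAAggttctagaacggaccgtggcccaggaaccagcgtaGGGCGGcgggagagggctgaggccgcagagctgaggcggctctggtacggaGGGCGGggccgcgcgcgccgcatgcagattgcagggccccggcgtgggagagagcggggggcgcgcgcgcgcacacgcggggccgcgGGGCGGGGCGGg
H2ac12: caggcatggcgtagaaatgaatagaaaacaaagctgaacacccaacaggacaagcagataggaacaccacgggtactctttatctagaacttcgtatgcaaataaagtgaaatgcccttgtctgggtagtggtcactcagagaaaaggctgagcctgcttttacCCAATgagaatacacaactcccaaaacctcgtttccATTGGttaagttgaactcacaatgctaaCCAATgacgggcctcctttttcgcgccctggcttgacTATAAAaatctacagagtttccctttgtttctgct

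The other 3 windows lie at regions called in WT and not in KO. The Rars2 window (chr4:34614707-34615006, plus strand) belongs to the strongest of these, the Pkp4 window (chr2:59160600-59160899, plus strand) has 3 CCAAT motifs, and the Psmb9 window (chr17:34187281-34187580, minus strand) is part of the Psmb9/Tap1 promoter of antigen processing.
Rars2: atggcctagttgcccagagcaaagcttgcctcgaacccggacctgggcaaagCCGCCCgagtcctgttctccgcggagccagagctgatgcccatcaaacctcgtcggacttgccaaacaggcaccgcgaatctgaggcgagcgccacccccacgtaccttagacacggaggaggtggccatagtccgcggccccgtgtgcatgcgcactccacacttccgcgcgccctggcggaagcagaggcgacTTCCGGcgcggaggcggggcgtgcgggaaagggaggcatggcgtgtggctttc
Pkp4: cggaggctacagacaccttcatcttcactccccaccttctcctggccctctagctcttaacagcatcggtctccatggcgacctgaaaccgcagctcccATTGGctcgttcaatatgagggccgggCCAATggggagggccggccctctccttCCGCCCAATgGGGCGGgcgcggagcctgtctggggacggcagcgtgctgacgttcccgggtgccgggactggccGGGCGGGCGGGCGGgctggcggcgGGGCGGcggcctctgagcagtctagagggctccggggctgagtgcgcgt
Psmb9: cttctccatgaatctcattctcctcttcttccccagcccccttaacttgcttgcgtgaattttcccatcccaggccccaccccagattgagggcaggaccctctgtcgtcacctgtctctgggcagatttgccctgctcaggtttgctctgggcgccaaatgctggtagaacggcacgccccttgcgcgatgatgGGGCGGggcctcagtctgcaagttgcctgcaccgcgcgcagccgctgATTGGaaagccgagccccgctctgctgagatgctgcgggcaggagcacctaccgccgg

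A WT region was counted as kept when a region of the KO list overlapped it by at least 1 bp, and as not called otherwise. Regions at 2 or more genes were kept in 710 of 1252 cases (56.7%, exact 95% interval 53.9 to 59.5), beside 46.2% of all WT regions. The other 542 were not called in KO (43.3%), beside 53.8% of all WT regions. Regions at the end of 1 gene were kept in 3171 of 5795 cases (54.7%, 53.4 to 56.0), and regions away from gene ends in 3145 of 8168 (38.5%, 37.4 to 39.6). The difference between regions at 2 or more genes and those at 1 gene was 1.99 percentage points, and its interval of -1.05 to 5.00 includes 0. Since each group has 1 list, there was no test between WT and KO and no replicate check. The intervals cover counting error over regions only. The KO list rested on fewer reads, with a genome background of 1.03 reads against 1.37 in WT, a relative depth of 0.752, so the lower depth and the genotype cannot be told apart in the number of regions called. Fewer open nuclei and less cutting per nucleus cannot be told apart either.

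The strength of a region in WT, given as the authors' fold enrichment over local background at the summit, went with how often it was kept. Kept regions at 2 or more genes had a median fold enrichment of 8.53 in WT, and those not called had 5.84. In the lowest decile of fold enrichment, counted over all WT regions, 12 of 95 were kept (12.6%). In the fifth decile 45 of 127 were kept (35.4%), in the seventh 89 of 132 (67.4%) and in the highest 146 of 148 (98.6%). Averaged over the 10 bins with equal weight, the kept share was 50.7% at 2 or more genes, 50.2% at 1 gene and 42.4% away from gene ends. At like fold enrichment the first and second classes thus differed by 0.545 points, and the first exceeded the regions away from gene ends by 8.27 points.

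**Figure D1:**
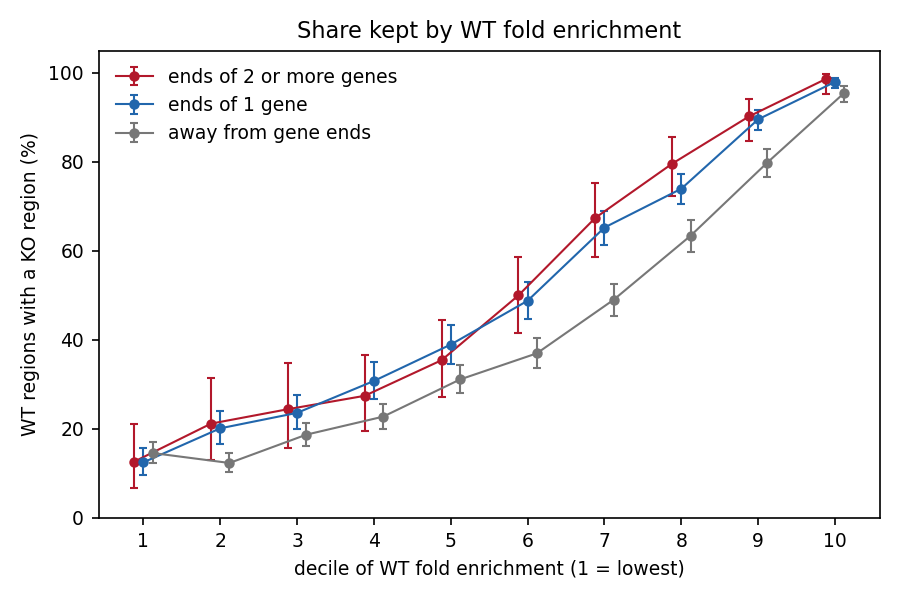
Share of WT regions with an overlapping KO region (%, vertical axis) by decile of WT fold enrichment over all WT regions (horizontal axis, 1 is the lowest), with exact 95% intervals. The lines for regions at 2 or more genes and at 1 gene run together from 12.6% and 12.5% in the lowest decile to 98.6% and 98.0% in the highest, and the line for regions away from gene ends runs below them from the second decile on.

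Regions at 2 or more genes were wide. Their median width was 386 bp, against 360 bp at 1 gene and 275 bp away from gene ends. Their median fold enrichment of 7.09 was close to the 6.96 of regions at 1 gene and above the 6.25 of the rest. Kept regions had a median WT width of 471 bp, and the KO regions that overlapped them had 320 bp. Regions not called were narrower, with a median of 279.5 bp. At 400 bp or more, 456 of 592 regions were kept (77.0%), and under 400 bp 254 of 660 (38.5%). The difference averaged over the fold enrichment bins was 18.8 points, so width went with being kept also among regions of like fold enrichment. A wider region meets a KO region more easily when 1 bp of overlap is enough. The split at 400 bp was not among the planned comparisons and was not matched on reads. The summits of kept regions lay a median of 34 bp apart in WT and KO, against 30 bp at 1 gene.

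The arrangement of the genes was read from the strand of their start sites where the promoter table gave it, which it did for both genes of 941 regions at 2 genes. The largest class was head-to-head pairs, in which both starts lie in reach and the genes point away from each other or overlap at their 5′ ends. It held 706 regions, of which 428 were kept (60.6%, 56.9 to 64.2). Where the start of one gene met the end of another, 97 of 201 regions were kept (48.3%, 41.2 to 55.4). The difference of 12.4 points had an interval of 4.58 to 20. Averaged over bins of fold enrichment, an alternative chosen after the data were seen, it was 8.77 points (53.3% against 44.6%). This average has no interval, and the bins held only 9 to 35 start-and-end regions each. Within every decile the intervals of both classes overlap, and in the lowest the order was reversed (10.5% against 13.3%). Median fold enrichment was 7.20 in head-to-head pairs and 6.98 at a start and an end, and median widths were 420 and 344 bp.

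The other arrangements were small. Pairs with both starts on the same strand had 24 regions with 12 kept. Where only the ends of genes were in reach, 3 of 10 were kept. Regions at 3 genes were kept in 13 of 28 cases (46.4%). For 283 regions the strand of at least 1 gene was not given, and 157 of these were kept (55.5%). The 5 strongest regions at 3 genes all had a KO counterpart. The region of Rspry1, Psme3ip1 and the predicted LOC115486880 had 38 reads at its summit in WT and 25 in KO. Cmc4, Mtcp1 and Brcc3 on the X chromosome shared a region with 24 WT and 15 KO reads, and Shld3, Trappc13 and Trim23 one with 40 and 24. Shld3 is a subunit of shieldin, which protects DNA ends, and Brcc3 is a deubiquitinase that acts at DNA breaks.

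**Figure D2:**
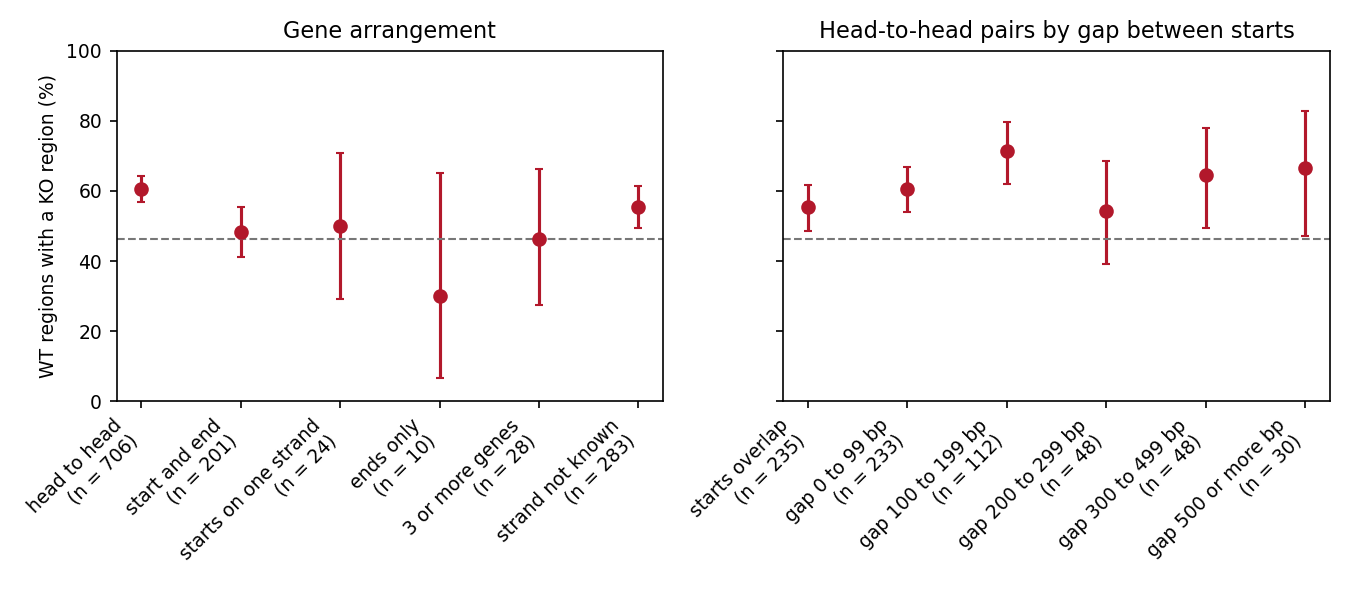
Share of WT regions with a KO region (%, vertical axis) by gene arrangement (left) and, for head-to-head pairs, by the gap between the starts (right), with exact 95% intervals and the number of regions under each class. The dashed line is the 46.2% of all WT regions; head-to-head regions sit at 60.6%, and those with a gap from 100 to under 200 bp at 71.4%.

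Over head-to-head regions the gap between the starts had a median of 54 bp, with quartiles of -91.5 and 148.5 bp. A negative gap means that the genes overlap at their 5′ ends. Overlapping starts had 235 regions with 55.3% kept. Gaps from 0 to under 100 bp had 233 regions with 60.5% kept. Gaps from 100 to under 200 bp had 112 regions, of which 71.4% were kept (62.1 to 79.6), and a median fold enrichment of 8.27. At gaps from 200 to under 300 bp 54.2% of 48 regions were kept, from 300 to under 500 bp 64.6% of 48, and at 500 bp or more 66.7% of 30. The intervals of neighbouring classes overlap, so the classes have no clear order. Over bins of fold enrichment, regions with gaps from 100 to under 200 bp were kept 6.00 points more often than the other head-to-head regions. This class, the one with the highest kept share, was set against the rest after the data were seen.

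Whether the region covered both starts separated head-to-head regions more than the gap did. The region reached across both starts in 410 of 706 pairs (58.1%). Of these 308 were kept (75.1%), with a median fold enrichment of 8.25. Of the 296 regions that did not reach both starts 120 were kept (40.5%), with a median of 6.01. The difference within bins of fold enrichment was 13.8 points. This split was chosen after the data were seen, and wider regions span both starts more easily. The WT summit lay between the starts in 271 of the 706 regions (38.4%) and a median of 55 bp from the nearer start.

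Some gene sets held more than 1 region. In 89 sets there were 2, both kept in 18 sets, neither in 29 and 1 of them in 42. In 37 of these 42 sets the kept region had the higher fold enrichment. Mcm4/Prkdc is one such pair of regions, with both kept: the first had 40 WT reads and the second 18, and 1 KO region with 20 reads overlapped both. Mcm4 is a subunit of the replicative helicase and Prkdc the catalytic subunit of the DNA-dependent protein kinase. Across all sets, 8 kept regions shared their KO region with another, and 17 overlapped 2 or more KO regions.

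The strongest kept regions had between 39 and 80 reads at the summit in WT and between 21 and 58 in KO. Zfp654/Cggbp1 on chromosome 16, the second encoding a CGG repeat-binding protein, had the highest fold enrichment, 16.7 in WT with 76 reads and 14.3 in KO with 58 reads. Rpgrip1l/Fto had 78 and 43 reads, where Rpgrip1l encodes a protein of the ciliary transition zone and Fto an RNA demethylase. Hormad1/Golph3l had 54 reads in WT and 21 in KO, the lowest KO value of the 8. Cep170/Sdccag8, which encode centrosomal proteins, had 80 and 43 reads. Mdh1/Wdpcp, with cytosolic malate dehydrogenase and a ciliogenesis gene 35 bp apart, had 76 and 42 reads. Its region covered the window printed above in full.

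Rpl15/Nkiras1, with a protein of the large ribosomal subunit, had 59 and 33 reads. Hccs, which attaches haem to cytochrome c, and the predicted gene Gm15246 on the X chromosome had 39 and 31 reads. Eaf2/Golgb1, with an elongation factor partner and the Golgi protein giantin, had 61 and 31 reads. All 8 had fewer KO than WT reads. Scaled by the relative depth, the WT values of Zfp654/Cggbp1 and Hccs/Gm15246 were 57.2 and 29.3 reads, slightly under the 58 and 31 counted in KO. For the other 6 the scaled WT value was above the KO count: 58.7 reads against 43 for Rpgrip1l/Fto, 40.6 against 21 for Hormad1/Golph3l, 60.2 against 43 for Cep170/Sdccag8, 57.2 against 42 for Mdh1/Wdpcp, 44.4 against 33 for Rpl15/Nkiras1 and 45.9 against 31 for Eaf2/Golgb1. The 8 were picked for high fold enrichment in WT, which rests on the same WT reads. That choice favours WT values above the KO counts, so the comparison cannot decide on a loss in KO.

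Among the 269 regions at 2 or more genes with a -log10 q of at least 20 in WT, 263 were kept (97.8%), beside 96.7% of all WT regions at that level. The other 6 were Rars2/Orc3, Selenoh/Tmx2, Ids/Eola1, Ccdc148/Pkp4, Ptrhd1/Cenpo and Atp13a1/Gmip. Rars2/Orc3 had the highest fold enrichment of all regions not called, 11.6 with 31 WT reads over 290 bp. Rars2 is the mitochondrial arginyl-tRNA synthetase and Orc3 a subunit of the origin recognition complex, and their starts overlap by 6 bp. Selenoh/Tmx2, a selenoprotein and a thioredoxin-related membrane protein, had 32 reads. Ids, the lysosomal iduronate-2-sulfatase, and Eola1 had 27 reads on the X chromosome. Ccdc148/Pkp4, the second gene encoding the junction protein plakophilin 4, had 28 reads. Ptrhd1/Cenpo, with a centromere protein, had 30 reads, and Atp13a1/Gmip, with a P-type ATPase of the endoplasmic reticulum, had 32.

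Slc25a27/Cyp39a1 with 24 WT reads and Zcrb1/Pphln1 with 23 completed the 8 strongest regions not called. Zcrb1 is a protein of the minor spliceosome and Pphln1 a subunit of the HUSH silencing complex. The KO list gives no value where no region was called, so the KO reads at these sites are not known. Its weakest region had 7 reads and its 5th percentile was 10 reads. After scaling by the relative depth, 119 of the 542 regions not called (22.0%) had WT reads at or above 15, the median of the KO list. This count was not made for the other WT regions not called, so it shows nothing particular to the 542. It rests on WT reads of regions called in WT, which favours high WT values, so it cannot decide on a loss in KO.

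Reads were compared between the lists only in regions called in both. Over the 710 kept regions the summits held 20539 reads in WT and 12752 in KO, a KO share of 38.3% (37.8 to 38.8). The relative depth alone gives 42.9%. Regions at 1 gene had a similar level, 38.5% (38.3 to 38.8), and regions away from gene ends 42.4% (42.2 to 42.7). The share of a single region lay below that of the depth in 533 of 710 cases (75.1%). This count was not made for the other kept regions. The median share of a single region was 38.8% in the 710 and 38.6% at 1 gene. The upper quartile was 42.86% in both, just under the share given by the depth. Away from gene ends the median was 41.2% and the upper quartile 46.2%. Low shares were therefore not particular to the 710 regions. Among the 710, regions with few reads had higher shares: 45.6% under 25 reads in both lists together (25 regions), 40.3% from 25 to under 40 (259), 37.4% from 40 to under 60 (278), 37.5% from 60 to under 100 (138) and 37.1% at 100 or more (10). Away from gene ends the shares in the same order were 45.5%, 41.8%, 38.6%, 40.6% and 47.3%, the last over 204 regions. The totals of 38.3% and 42.4% thus rest on unlike mixes of read classes. A weak region enters this comparison only where the KO value was high enough to be called.

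Region by region, 30 of the 710 kept regions (4.23%) had a KO share whose exact 95% interval lay below 42.9%, beside 2.83% of all kept WT regions. None lay above it, beside 0.897% of all. At 1 gene the counts were 109 below (3.44%) and 4 above, and away from gene ends 60 below and 59 above. These counts were not adjusted for the number of regions, and the share rests on the most frequent local background being a measure of depth, which was not tested.

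**Figure D3:**
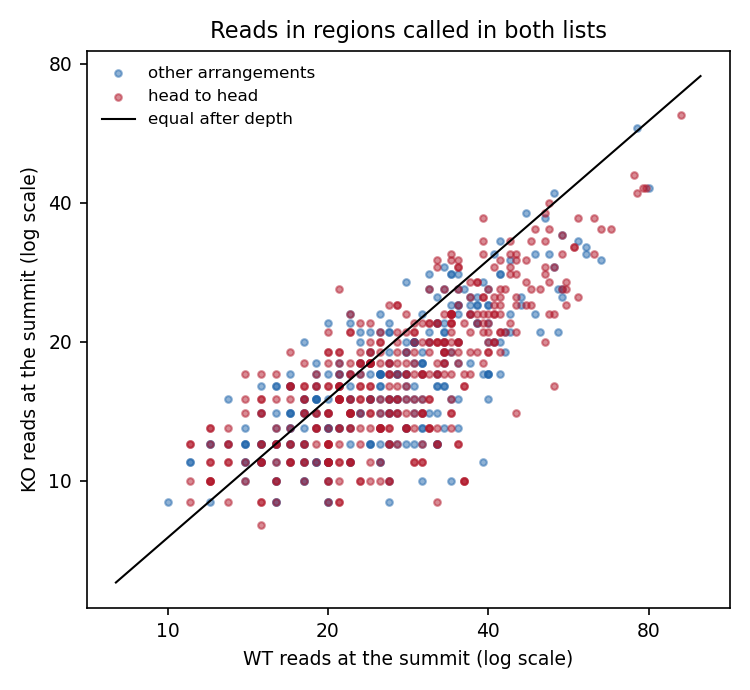
Reads at the summit in WT (horizontal axis, log scale) and in KO (vertical axis, log scale) for the 710 regions called in both lists, with head-to-head pairs in red and other arrangements in blue. The line marks equal accessibility after the relative depth of 0.752. Below it lie 533 regions, a count that was made for this set only.

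The lowest KO shares among regions with 30 or more reads were close to each other. Gtf2e1/Rabl3, Cep44/Fbxo8 and Nusap1/Oip5 each had 36 reads in WT and 10 in KO, a share of 21.7%. Gtf2e1 is a subunit of the general factor TFIIE, Cep44 a centrosomal protein, Nusap1 a spindle protein and Oip5 a factor that loads the centromeric histone. Nusap1 and Oip5 overlap at their starts by 207 bp, and the Oip5 window above holds 4 CCAAT motifs. Swi5/Golga2 had 32 and 9 reads, where Swi5 acts in homologous recombination, and Adam9/Tm2d2 had 39 and 11.

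At the other end, Toe1/Mutyh had 21 reads in WT and 26 in KO, a share of 55.3%. Toe1 is a deadenylase of small nuclear RNAs and Mutyh a DNA glycosylase for oxidized bases. Eif3k/Map4k1 had 14 and 17 reads, Mrpl47/Ndufb5 15 and 17, Snx5/Mgme1 17 and 19, and the second Mcm4/Prkdc region 18 and 20. Those 20 KO reads belong to a KO region that also overlapped the first Mcm4/Prkdc region, which had 40 WT reads and a share of 33.3%. Map4k1, also known as HPK1, is a kinase that restrains T cell receptor signalling. None of these regions differed from the depth share beyond its own counting interval.

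The widest region was that of Ddias/Prcp, 1271 bp long, with 33 reads in WT and 17 in KO. Psma7/Ss18l1 (1175 bp) had 18 and 15 reads, Eny2/Nudcd1 (1157 bp) 53 and 29, Fam76b/Cep57 (1147 bp) 63 and 37, and Spata5/Nudt6 (1122 bp) 39 and 37. All 5 were kept. Spata5/Nudt6 had nearly equal reads in both lists, a KO share of 48.7% (37.0 to 60.4). That interval includes the 42.9% that the relative depth alone gives.

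Motifs were counted in the promoter window with the largest overlap with each region, which was at hand for 984 of the 1252 regions (78.6%). GC boxes were found in 72.7% of these windows, beside 73.2% of the 3867 windows of regions at 1 gene and 46.2% of all 21263 promoters in the table. The ETS core was found in 44.4% (41.3 to 47.6), beside 32.1% at 1 gene (30.6 to 33.6) and 18.7% of all promoters. CCAAT was found in 48.0%, 46.2% and 38.2%. A TATA box was found in 3.56% (2.49 to 4.91), beside 5.82% at 1 gene and 12.6% of all. NRF1 sites were in 5.28%, 5.04% and 2.52%, YY1 sites in 4.47%, 3.44% and 1.83%, cAMP response elements in 4.47%, 3.98% and 2.23%, E-boxes in 11.8%, 11.2% and 7.84%, and ZFP143 sites in 1.02%, 1.01% and 0.489%. The median window held 24 CpG, against 23 at 1 gene and 13 over all promoters. A match says only that the letters are there, and no match says only that they are not in this window.

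CCAAT was the motif that differed most between kept regions and those not called. It was found in 349 of 598 windows of kept regions (58.4%, 54.3 to 62.3) and in 123 of 386 windows of regions not called (31.9%, 27.2 to 36.8). In head-to-head pairs the shares were 57.1% and 27.0%. Put the other way, regions with CCAAT were kept in 73.9% of cases and those without in 48.6%, a difference of 25.3 points (19.3 to 31.0). The kept share was 69.6% with 1 CCAAT (247 regions), 75.2% with 2 (109) and 81.9% with 3 or more (116).

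Fold enrichment moved with the motif. Its median in WT was 6.69 without CCAAT, 7.71 with 1, 8.78 with 2 and 9.32 with 3 or more. Averaged over bins of fold enrichment the difference fell to 9.29 points (57.8% against 48.5%), and over bins of summit reads to 6.51 points. At 1 gene the difference was 68.7% against 53.1%, and over bins of fold enrichment 0.512 points. These alternatives were chosen after the data were seen.

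**Figure D4:**
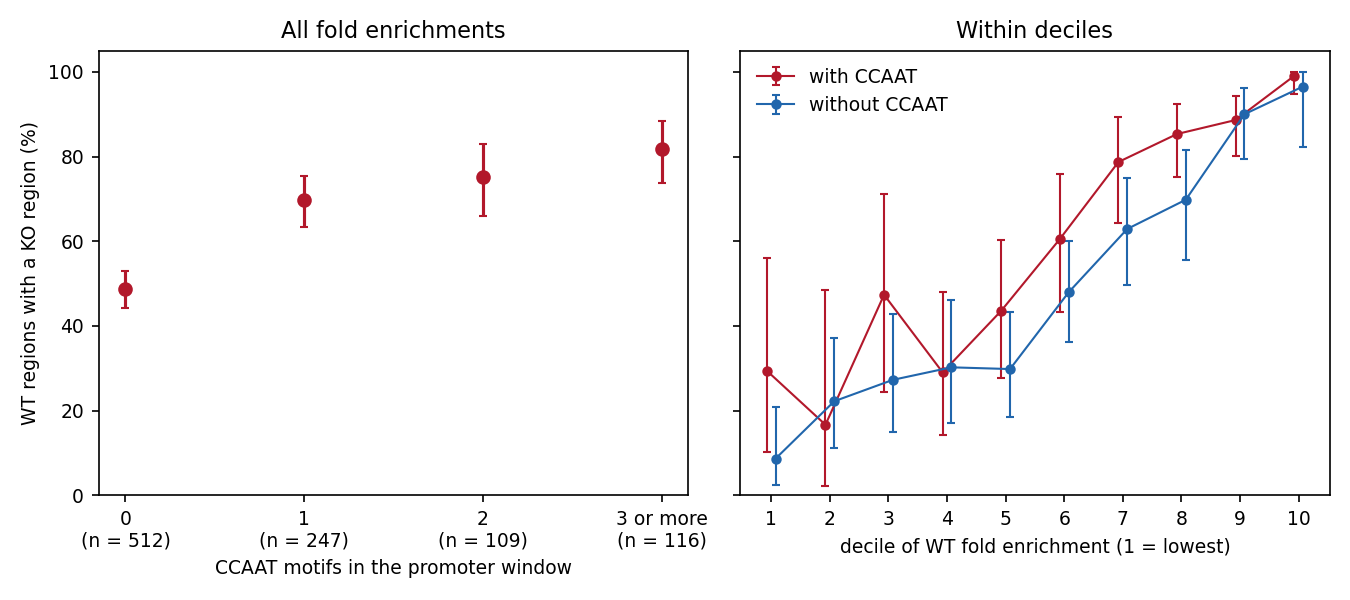
Share of WT regions at 2 or more genes with a KO region (%, vertical axis), by the number of CCAAT motifs in the promoter window (left) and by decile of WT fold enrichment with and without CCAAT (right), with exact 95% intervals. The share rises from 48.6% without CCAAT to 81.9% with 3 or more, while within deciles the intervals of both lines overlap.

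CCAAT motifs lay a median of 80 bases before the start. In windows of kept regions the median was 78 bases and in those of regions not called 85 bases before it. Of the 879 motifs, 74.9% lay within 100 bp of the WT summit, with 74.7% in kept regions and 75.3% in regions not called. Windows of kept regions held more motifs in every bin of 20 bp. Between 30 and 10 bases before the start there were 14.4 motifs per 100 windows in kept regions and 3.89 in regions not called. Between 90 and 70 bases before it there were 12.5 and 7.51, and between 130 and 110 bases 7.19 and 1.81. The bins carry no intervals and were not matched on fold enrichment, so a difference placed near the start is not shown.

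**Figure D5:**
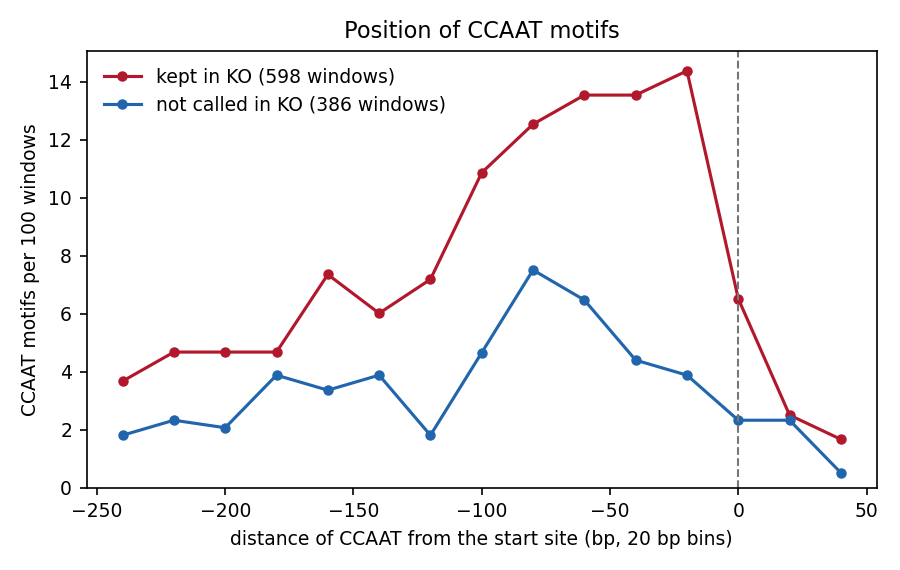
CCAAT motifs per 100 promoter windows (vertical axis) by distance from the start site in bins of 20 bp (horizontal axis), for 598 kept regions and 386 regions not called at 2 or more genes. Kept regions reach 14.4 per 100 windows just before the start and regions not called reach 7.51, between 90 and 70 bp before it.

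The other motifs showed smaller differences. The ETS core was in 41.1% of windows of kept regions (37.2 to 45.2) and in 49.5% of regions not called (44.4 to 54.6). Regions with it were kept in 56.3% of cases and those without in 64.4%, and 4.85 points less often over bins of fold enrichment. GC boxes were in 74.4% and 69.9%, and the TATA box in 3.01% and 4.40%. The median number of CpG was 24 in both. NRF1, YY1, cAMP response element, E-box and ZFP143 shares had overlapping intervals.

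Over all 21900 protein-coding genes, 2299 lay at a shared region (10.5%), and each gene list is to be read beside that share. The kept share of each list is to be read beside the 56.7% of all shared regions. A listed gene counts with either end in reach, so a region may lie at its end and not at its promoter. Of 60 DNA replication genes, 15 (25%) lay at a region shared with another gene, and 13 of these 17 regions were kept (76.5%, 50.1 to 93.2), beside 56.7% of all such regions. Their median fold enrichment was 8.56, above the 7.09 of the set. Shared regions in decile 8 of fold enrichment, which holds 8.56, were kept in 79.6% of cases. Rpa3/Umad1, with a subunit of the single-strand binding protein RPA, had 36 reads in WT and 17 in KO. Pcna/Cds2, with the sliding clamp of DNA polymerases, had 40 and 22. Trmt6/Mcm8, with a helicase of homologous recombination, had 32 and 14, and Vps35/Orc6, with an origin recognition subunit, 29 and 20. The 4 regions not called were those of Orc3, described above, of the polymerase epsilon subunits Pole3 (18 WT reads) and Pole2 (16), and of Lig1, the replicative DNA ligase (11).

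DNA repair genes were the list with the highest share of members at a shared region apart from the textbook pairs, 31 of 77 genes (40.3%). Of the 34 regions 26 were kept (76.5%, 58.8 to 89.3), with a median fold enrichment of 8.79. This median also lies in decile 8, where 79.6% of shared regions were kept, so the share was not particular to the list. Xrcc3/Zfyve21, with a protein of homologous recombination, had 55 reads in WT and 34 in KO. Atm/Npat, with the kinase that answers DNA breaks and a coactivator of histone genes, had 42 and 21. Hscb/Chek2, with a checkpoint kinase, had 37 and 25, and Pms1/Ormdl1, with a mismatch repair protein, 39 and 18. Not called were Osgep/Apex1 with 21 WT reads, the region of Atr with 18, Rlbp1/Fanci with 18 and Rad17/Ak6/Taf9 with 19, which hold a base excision nuclease, a replication stress kinase, a Fanconi anaemia protein and a checkpoint clamp loader.

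Of 78 mitochondrial ribosomal protein genes 26 were at a shared region (33.3%), and 13 of 27 regions were kept (48.1%, 28.7 to 68.1), an interval that includes the 56.7% of all shared regions. Mrpl50/Zfp189 was the strongest, with 56 WT and 27 KO reads, and Mrpl44/Wdfy1, with 25 WT reads, the strongest not called. Cyb5rl/Mrpl37 had 29 and 14 reads, Mrps16/Cfap70 34 and 28, and Mrpl41/Pnpla7 33 and 18. Rab6a/Mrpl48 (16 WT reads), Mrpl2/Cul7 (21) and Mrpl57/Ska3 (14) were not called. Of 94 respiratory chain genes 31 were at a shared region (33%), with 19 of 33 kept (57.6%). Ndufa5/Asb15, with a subunit of complex I, had 53 and 29 reads, Ndufs8/Aldh3b1 33 and 16, Gabpa/Atp5j 43 and 21 and Wdr4/Ndufv3 26 and 10. Gabpa is itself an ETS factor. Cox6b2/Fam71e2 (26 WT reads), Smim27/Topors/Ndufb6 (30), Uqcrh/Lrrc41 (23) and Fam126b/Ndufb3 (18) were not called.

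Genes of translation and protein turnover followed. Cytosolic ribosomal proteins had 13 of 81 genes at a shared region and 6 of 13 regions kept (46.2%, 19.2 to 74.9), beside 56.7% of all shared regions. Besides Rpl15, kept regions included Card6/Rpl37 with 54 and 26 reads, Clhc1/Rps27a with 28 and 19 and Micos13/Rpl36 with 16 and 11. Rpl3l/Msrb1 had 23 WT reads and was not called, as were Pidd1/Rplp2 (20), Rpl9/Lias (13) and Zc3h10/Rpl41 (19). Aminoacyl-tRNA synthetases had 13 of 37 genes and 10 of 14 regions kept (71.4%, 41.9 to 91.6). Iars2/Bpnt1 had 21 and 16 reads, and both Aars/Exosc6 (21 WT reads) and Kars/Terf2ip (15) were not called. Proteasome genes had 10 of 48 and 4 of 11 regions kept (36.4%, 10.9 to 69.2), with a median fold enrichment of 5.81. Mrpl32/Psma2 had 22 and 14 reads, Hykk/AY074887/Psma4 20 and 11 and Cep76/Psmg2 17 and 13. Psmd8/Catsperg1 (19 WT reads), Dnajc2/Psmc2 (15) and Psmg1/Brwd1 (14) were not called.

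Chaperones had 22 of 82 genes at a shared region and 16 of 23 kept (69.6%, 47.1 to 86.8). Hspa14/Cdnf had 52 and 27 reads, Cct6a/Psph, with a subunit of the cytosolic chaperonin, 42 and 23, Tbccd1/Dnajb11 46 and 24, and Hsp90b1/Ttc41, with the chaperone GRP94 of the endoplasmic reticulum, 55 and 31. Dnajc3/Uggt2 (18 WT reads), Aptx/Dnaja1 (19) and Dnajc30/Bud23 (15) were not called. The Dnajc3/Uggt2 region had only the ends of the genes in reach and no start. This pair did have a KO region elsewhere within reach, with 12 reads and no overlap with a WT region. Zinc finger genes were at a shared region in 33 of 394 cases (8.38%), near the 10.5% of all genes, and 17 of 31 regions were kept (54.8%), near the share of all shared regions. Zfp277/Dock4 had 63 and 31 reads and Zfp513/Ppm1g 43 and 19. Zkscan7/Zfp445 (20 WT reads), Usb1/Zfp319 (23), Zfp398/Zfp786 (15) and Zfp408/Arhgap1 (21) were not called.

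Histone genes had 33 of 103 genes at 19 regions, of which 9 were kept (47.4%, 24.4 to 71.1). The head-to-head pairs H2ac12/H2bc12, H2ac24/H4bc24 and H2bc23/H2ac23 had 20, 21 and 25 reads in WT and 16, 15 and 20 in KO. H2bc9/H3c7 had 24 and 12. H2ac22/H2bc22 (20 WT reads), H2ac10/H3c8 (22), H2bc6/H1f4 (17) and Dpagt1/H2ax (18) were not called. The pair Dpagt1/H2ax did have a KO region elsewhere within reach, with 12 reads and no overlap with a WT region. The windows of the 4 kept regions held 3 CCAAT motifs each, and so did those of H2ac10/H3c8 and H2bc6/H1f4, while that of H2ac22/H2bc22 held 4, so the motif did not set these histone regions apart. The H2ac12 window printed above also holds a TATA box. Histone genes are near-identical copies, so the placing of their reads is uncertain.

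Of 16 gene pairs known from textbooks to share or adjoin a promoter, 10 had a common region in WT, 14 regions in all. For 9 of the pairs all common regions were kept, 12 in number. Paics/Ppat, of purine synthesis, had regions with 48 and 27 WT reads that overlapped 1 KO region with 24 reads. Brca1/Nbr1, with the recombination protein Brca1, had 26 reads in WT and 12 in KO. Gart/Son had regions of 33 and 21 WT reads, with 19 and 15 in KO. Hspe1/Hspd1, the mitochondrial chaperonin pair, had 20 and 9. Mrps12/Sars2 had 22 and 23, nearly equal before any scaling, and Hars2/Hars 18 and 11.

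The exception was Psmb9/Tap1, a subunit of the immunoproteasome and a subunit of the peptide transporter that loads class I molecules. Its 2 regions had 16 and 13 WT reads, fold enrichments of 5.52 and 4.58, and no KO region. The starts lie 226 bp apart, and the Psmb9 window printed above holds 1 CCAAT and 1 GC box. Psme2/Rnf31, with a subunit of the proteasome activator PA28, had 11 WT reads and was not called. Pdia3/Catsper2, with a member of the class I peptide-loading complex, had 34 reads in WT and 15 in KO. Antigen processing had 1 of 4 regions kept, beside 56.7% of all shared regions. Its median fold enrichment was 5.05, and shared regions in deciles 2 and 3 of fold enrichment were kept in 21.2% and 24.4% of cases. Pairs without a common region were Surf1/Surf2, Cd3d/Cd3g, Col4a1/Col4a2, Trp53/Wrap53, Tk1/Afmid and Mrpl12/Slc25a10. A gene of a listed pair also shared a region with its other neighbour in Dnd1/Hars and in Hgs/Mrpl12, each with 12 WT reads and not called.

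Of 34 genes of the T cell receptor complex, its signalling and T lineage factors, 1 was at a shared region: Lat, the adaptor that links the receptor to downstream enzymes, next to Spns1, with 29 WT and 18 KO reads. The 20 WT regions at an end of these genes, mostly at 1 gene, were kept in 5 cases (25%, 8.66 to 49.1), beside 54.7% of all regions at 1 gene. Their median fold enrichment was 6.54, against 6.96 at 1 gene. Regions at 1 gene in decile 6 of fold enrichment, which holds 6.54, were kept in 48.8% of cases, inside that interval. Of 16 DP thymocyte markers, 9 had a WT region at an end, and none of these lay at 2 genes. Of the 11 regions 1 was kept (9.09%, 0.23 to 41.3), beside 46.2% of all WT regions, with a median fold enrichment of 5.71. Regions at 1 gene in decile 4, which holds 5.71, were kept in 30.8% of cases, inside that interval. Of the markers of other cell types, 1 of 6 B cell genes had a WT region, which was not called in KO, and none of the 6 myeloid, 5 erythroid, 6 stromal and 4 natural killer genes had one. A site without a called region has no known level, so these counts describe calls only.

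By chromosome, the kept share ranged from 42.2% to 75% on the autosomes, and was 11 of 25 on the X chromosome (44.0%). Just inside the rule, with the second gene 990 to 995 bp away, were LOC115488470/Arf3, Adat1/Kars, Gm4275/Ate1, Prr14/Fbrs and Kcnh6/Dcaf7, of which Adat1/Kars was kept. Just outside, at 1005 to 1019 bp, were Bccip/Uros, Rnaseh2c/Kat5, Ppcdc/Scamp5, Hnrnpul1/Axl and Tjp3/Pip5k1c, all 5 of them kept. Among the kept regions named, the KO region covered less than 50% of the WT region at Psma7/Ss18l1, Rpa3/Umad1, Clhc1/Rps27a, Wdr4/Ndufv3 and Bccip/Uros, and missed the WT summit at Swi5/Golga2 and Cep76/Psmg2.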

How the data were processed

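ATAC-seq was made from 2 WT and 2 KO samples, and 1 region list per group was deposited from both. Tools named are Bowtie2 and MACS2 2.1.4, beside FastQC, Trim Galore, GATK, Picard and deepTools 3.4.1, on build mm10, per the submitters' processing notes; their order and settings, including any shift for the transposase, are not given in the sources used here. The authors deposited for each region a score, a fold enrichment, the -log10 p and the -log10 q. The deposited score repeats the -log10 q, whose lowest value was 1.32 in WT and 1.31 in KO, and the deposited summit lists repeat the peak lists.

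Fold enrichment and p were solved together for whole reads at each summit and for the local background, whose most frequent value gave the relative depth. The solved reads returned the deposited -log10 p within 0.000172. Gene ends came from the RefSeq gene table and starts, strand and promoter sequence from the RefSeq promoter table, both of GRCm38.p6, the assembly behind mm10; the promoter table held 79.9% of the protein-coding genes. Shares carry exact Clopper-Pearson 95% intervals and differences of shares Newcombe intervals, for counting error only. No test between groups was made.

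Regions, gene lists and rules were chosen with earlier results of these data known. Named were the 8 strongest kept regions and the 8 strongest not called, the 5 highest and 5 lowest KO shares among those with 30 or more reads, 5 at 3 genes, the 5 widest, up to 4 kept and 4 not called per list, all of the textbook, T cell and antigen processing lists, and the 5 just inside and outside the rule. Some regions that this rule takes are not reported here. Regions at predicted genes (Gm or Rik) alone were skipped in the sets by strength and by KO share. The alternatives tried were the q threshold, overlap rule, window, gene set, starts only, autosomes, list length, matching column, read range and local background. The solver, overlap and arrangement scripts were tested on simulated data. Scripts ran under Python 3.11.15 with scipy 1.17.1, pandas 2.3.3, numpy 2.4.6 and matplotlib 3.10.9.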

Additional observations from a re-analysis of the deposited data

Results flagged for a closer look

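Of the 745 KO regions at the ends of 2 or more genes, 35 had no WT region (4.70%, 3.29 to 6.47), although the WT list was the deeper. Over all KO regions the share was 565 of 7645 (7.39%, 6.81 to 8). The 35 regions lie outside the comparison above, which starts from the WT list, and were weak, with a median fold enrichment of 5.46. The strongest were Smim14/Ube2k (fold enrichment 7.38, 14 KO reads), Rpl36al/Mgat2 (6.72, 15 reads), Lrrc24/C030006K11Rik (6.52, 14 reads) and Fdx2/Raver1 (6.40, 12 reads). At 15 of the 35 the same gene set held a WT region elsewhere within reach. Dnajc3/Uggt2 and Dpagt1/H2ax, whose WT regions are named above as not called, are among them.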

How the results depend on the processing

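The kept share of 56.7% stayed within its interval in 6 of 11 alternatives. It was 42.3% with a -log10 q of at least 10 in both lists (688 regions), 46.3% when KO regions had to cover 50% of the WT region, 60.5% with a window of 500 bp (1015 regions), 59.5% with starts only (754) and 77.7% with the WT list limited to the length of the KO list (752). The difference from regions at 1 gene ranged from 0.890 to 4.79 points, and its interval excluded 0 with the 500 bp window alone (1.48 to 8.03). At like strength it ranged from -0.325 points, matched on summit reads, to 2.20 points with 500 bp. Head-to-head minus start-and-end was 13.4 points with 500 bp and 9.88 with the wider window tried. The KO share of reads was 37.4% in regions with 60 to 100 reads and 37.4% in those with 40 to 60, both ends included, unlike the read classes given with the other results. The CCAAT difference of 25.3 points was 9.29 over bins of fold enrichment and 6.51 over bins of summit reads, 27.4 with the motif inside the region and 28.1 in head-to-head pairs. The causes of these shifts were not tested. Of 132 named regions, 5 lost their KO counterpart at 50% cover (Psma7/Ss18l1, Rpa3/Umad1, Clhc1/Rps27a, Wdr4/Ndufv3, Bccip/Uros) and 2 when the WT summit had to lie inside the KO region (Swi5/Golga2, Cep76/Psmg2). No paired analysis was possible because each group has 1 pooled list, and no replicate could be left out for the same reason. Regions of few reads limit the KO share, and sites under the calling threshold have no KO value.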
